A study of Mus musculus with 15 samples.

Results

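Plasmacytoid dendritic cells (pDC) and conventional dendritic cells of type 1 (cDC1) sorted from the thymus of wild-type (WT) mice were compared by 3′ RNA sequencing. The comparison set 3 libraries of pDC WT against 2 of cDC1 WT, 5 of the 15 libraries of the study, chosen by their labels and not by any measured value, and it covered all genes. The other libraries entered the model only through the shared scaling, filter and spread. The mice were male and female C57BL/6 animals of 8 to 12 weeks that carried a subcutaneous B16 melanoma secreting Flt3L, the cytokine on which dendritic cell output depends, and thymi were taken 9 to 12 days after its injection. Cells enriched on CD11c beads were sorted as pDC by Siglec-H and intermediate CD11c, and as cDC1 by CD8a, CD11c and MHC class II. The other libraries came from cDC2 and from mice with Itgax-cre and Stk11 fl/fl alleles (KO), in which Cre is driven by the CD11c gene's promoter. KO mice had the same tumour, strain and sorts. The transcriptomes therefore describe Flt3L-expanded cells of tumour-bearing mice in all groups.

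Both cell types arise from bone marrow progenitors under Flt3L. pDC resemble secretory lymphocytes, carry the nucleic acid sensors TLR7 and TLR9 in their endosomes and can release large amounts of type I interferon. Their identity depends on the E protein encoded by Tcf4. cDC1 depend on IRF8, BATF3 and ID2, an inhibitor of E proteins, take up dead cells and present the antigen on MHC class I to CD8 T cells. In the thymus, dendritic cells present antigen to developing T cells, and pDC can enter it from the blood with the help of the chemokine receptor CCR9.

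Expression is given in CPM, counts per 1000000 of the TMM-scaled library size, and differences are log2 values, pDC minus cDC1, with their standard error. Adjusted p-values come from edgeR (quasi-likelihood, two-sided, Benjamini-Hochberg over the 11746 genes tested), and a gene is called at an adjusted p under 0.05. Whether the libraries of a group came from separate mice is not in the labels, so p-values measure only the spread between these samples, which may be technical. Libraries held 7578681 to 10499062 counts in pDC and 4105082 to 5249274 in cDC1. They had been pooled by their Actb signal in qPCR, per the labels, and Actb, which encodes beta-actin, stood at 7294, 7333 and 5332 CPM in pDC against 34468 and 34108 in cDC1. Read at an equal depth of 3928164 counts, 10978 to 11225 genes were detected in pDC and 12588 to 12642 in cDC1. The library pDC WT 3 stood apart with the lowest scaling factor (0.841) and the lowest share of ribosomal protein counts (2.76%, against 3.69% and 5.30% in the other pDC libraries and 6.62% and 6.98% in cDC1). The part of these differences in the results was not tested.

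The 2 cell types differed widely. Of the 11746 tested genes 3253 were called (27.7%), 1509 higher in pDC (12.8%) and 1744 lower (14.8%). Counts of called members in the lists and families below are to be read beside these shares. The median log2 difference over all tested genes was −0.05, and over the called genes it was 1.72 for the higher and −2.08 for the lower ones. At least 16-fold differences were fitted for 220 of the higher and 410 of the lower genes. The genes higher in pDC held 38.0% to 42.6% of all counts in the pDC libraries and 12.5% to 14.3% in the cDC1 libraries. Those lower in pDC held 7.73% to 9.93% and 33.5% to 35.5%. No count of cDC1 was found for 46 of the higher genes, and no count of pDC for 172 of the lower ones. With cDC1 WT 2 alone, that is without cDC1 WT 1, the calls fell to 724 higher and 968 lower, and without cDC1 WT 2 to 975 and 1153. In bulk samples, fewer cells of a type and less RNA per cell cannot be told apart.

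**Figure D1:**
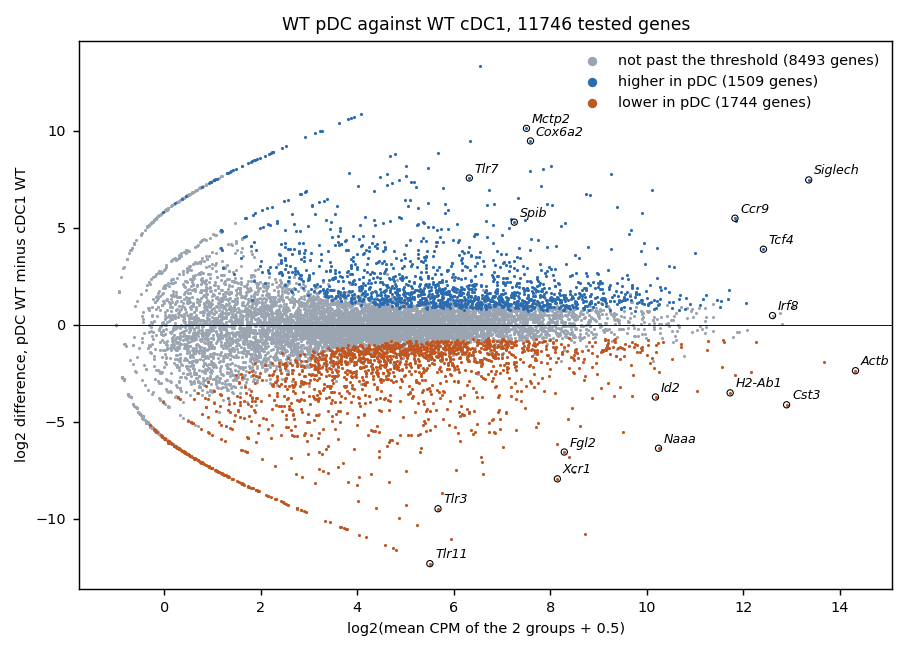
Each point is 1 of 11746 tested genes, with the mean level of the 2 WT groups on the x axis (log2 of mean CPM + 0.5) and the log2 difference, pDC minus cDC1, on the y axis; colours mark the 1509 genes called higher and the 1744 called lower in pDC. The outer curves of points are genes with no count in 1 group, whose fitted difference is no bound, and Siglech, Ccr9 and Tcf4 combine a high level with a large difference.

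The marker genes followed the labels. Siglech, which encodes the lectin used to sort pDC, stood at 15559, 19153 and 27692 CPM in the pDC libraries against 154 and 83.1 in cDC1, and so checks the sort. Ly6d, a surface protein of lymphoid-primed progenitors, stood at 727, 1150 and 662 CPM in pDC against 10.1 and 6.19 in cDC1, a log2 difference of 6.71 ± 0.44 (adjusted p = 8.81e-09). The cDC1 gene Naaa, a lysosomal amide hydrolase, showed the opposite, with 29.5, 33.5 and 24.2 CPM in pDC against 2368 and 2411 in cDC1 (−6.36 ± 0.35, adjusted p = 4.00e-09). None of these 3 genes overlapped between the groups. The same held for 6250 of the 11746 tested genes and for 3224 of the 3253 called ones. Both marker lists were chosen with earlier results of these data known, so their counts are no independent check of the labels. The pDC list holds the sort gene Siglech, and the cDC1 list holds Cd8a, whose protein was in the cDC1 gate. Of 30 pDC markers 29 were tested and 28 were higher in pDC, with a median log2 difference of 5.77, and Lag3 was not called (adjusted p = 0.233). Of 30 cDC1 markers, all tested, 29 were lower in pDC, with a median of −5.13. The exception was Cadm1, a cell adhesion gene, which stood at 960, 68.2 and 70.6 CPM in pDC WT 1 to 3 against 808 and 756 in cDC1. Without pDC WT 1 its log2 difference was −3.49 in place of −1.09 and was called (adjusted p = 4.66e-06). In the KO libraries Cadm1 stood at 817 ± 102 CPM in pDC and 633 ± 57.7 in cDC1 (mean ± SD). Its log2 difference there was 0.37 ± 0.80 and was not called (adjusted p = 0.8), an estimate too wide to give a direction. Summed over the list, cDC1 markers reached 891 to 1867 CPM in pDC and 11283 to 12338 in cDC1, and pDC markers 32353 to 52466 and 798 to 994. Siglech alone gave 15559 to 27692 CPM of the pDC marker sum in pDC.

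The sort genes of the other gates were less far apart. Cd8a, whose protein gated cDC1, stood at 86.3, 125 and 125 CPM in pDC against 259 and 249 in cDC1 (−1.18 ± 0.30, adjusted p = 0.00699), a call lost without cDC1 WT 1 (0.0563). Itgax, which encodes CD11c, ran from 112 to 160 CPM in pDC and from 157 to 158 in cDC1 and was not called (adjusted p = 0.721).

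The bases before the start of 4 genes that mark the comparison are shown because they hold, or lack, the short motifs searched for. They are from RefSeq (GRCm38.p6), 250 bases before the annotated start, 5′ to 3′ along the gene. Capitals mark matches on either strand to CACCTG, an E-box form, to GAGGAAGT, an ETS form, or to the interferon response motif. Siglech lies before its start on the plus strand at chr7:55767934-55768183, Ccr9 on the plus strand at chr9:123766961-123767210, Naaa on the minus strand at chr5:92278182-92278431 and Tlr11 on the plus strand at chr14:50357664-50357913.
Siglech: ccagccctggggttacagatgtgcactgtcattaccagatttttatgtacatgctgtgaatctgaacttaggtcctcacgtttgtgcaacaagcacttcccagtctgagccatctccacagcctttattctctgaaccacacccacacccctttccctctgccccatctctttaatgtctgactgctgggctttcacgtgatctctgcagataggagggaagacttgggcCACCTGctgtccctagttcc
Ccr9: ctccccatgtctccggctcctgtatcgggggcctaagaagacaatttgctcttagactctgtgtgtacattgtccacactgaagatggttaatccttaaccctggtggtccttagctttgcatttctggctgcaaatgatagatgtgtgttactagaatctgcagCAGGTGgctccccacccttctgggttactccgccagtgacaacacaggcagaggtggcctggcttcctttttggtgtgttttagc
Naaa: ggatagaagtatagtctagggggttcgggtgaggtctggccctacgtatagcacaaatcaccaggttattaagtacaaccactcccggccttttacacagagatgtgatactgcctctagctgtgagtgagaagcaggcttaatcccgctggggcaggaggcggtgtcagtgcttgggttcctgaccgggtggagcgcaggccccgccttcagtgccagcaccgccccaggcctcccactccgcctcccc
Tlr11: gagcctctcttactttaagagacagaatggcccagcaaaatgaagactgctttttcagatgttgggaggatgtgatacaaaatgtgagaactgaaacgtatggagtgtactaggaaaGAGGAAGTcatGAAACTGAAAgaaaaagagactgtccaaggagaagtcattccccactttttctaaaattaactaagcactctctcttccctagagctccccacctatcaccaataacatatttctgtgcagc
Siglech and Ccr9, which were higher in pDC, each hold 1 CACCTG match, Tlr11, which was lower, holds GAGGAAGT and the interferon response motif, and Naaa holds none of the forms searched.

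The shares of windows with each motif were read across all genes, with no test. CACCTG was found in 15.8% of 1511 windows of genes higher in pDC, 13.3% of 1732 windows of genes lower in pDC, 15.4% of the 11778 windows of tested genes and 17.2% of all 32851 windows in the table. CAGCTG, another E-box form, was found in 12.8%, 11.7%, 11.6% and 13% of the same windows. TGANTCA, the AP-1 form, was found in 3.64% of the higher, 6.06% of the lower and 4.46% of all tested windows, and in 6.75% of the whole table. GAGGAAGT was found in 3.38%, 3.35%, 2.83% and 2.44%, and the interferon response motif in 3.71%, 3.29%, 2.90% and 2.98%. A match is a description of the letters only, and 9258 of the tested genes had a window.

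Transcription factors separated the 2 cell types in both directions. Of 14 pDC-associated factor genes 9 were higher in pDC and none lower (median log2 difference 2.84), and of 15 cDC-associated ones 11 were lower and none higher (median −2.43). Tcf4, the E protein on which pDC identity depends, stood at 10855, 9256 and 10560 CPM in pDC against 822 and 561 in cDC1, which is 14.8-fold higher (3.89 ± 0.28, adjusted p = 2.21e-08). Spib, an ETS factor of pDC and B cells, stood at 272, 255 and 362 CPM against 8.91 and 6.37 (5.28 ± 0.37, adjusted p = 1.77e-08). The 2 groups lay far apart for both genes. Runx2, which supports the release of pDC from the marrow, was 29.9-fold higher in pDC. Zeb2, a repressor that favours pDC over cDC1, was 25.8-fold higher, with 1749, 1100 and 1703 CPM against 72.0 and 45.9. Bcl11a, a zinc finger factor that pDC need, was 8.74-fold higher. Tcf12, another E protein gene, rose as well (2.65 ± 0.32, adjusted p = 6.26e-06), as did Mef2c (3.04 ± 0.35, adjusted p = 4.01e-06).

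Id2, the E protein inhibitor of cDC1, stood at 129, 161 and 199 CPM in pDC against 1859 and 2448 in cDC1, which is 13.2-fold lower (−3.72 ± 0.39, adjusted p = 1.66e-06). Spi1, which encodes the ETS factor PU.1, stood at 19.8, 14.3 and 16.1 CPM against 210 and 238 (−3.74 ± 0.29, adjusted p = 5.45e-08). Every pDC library lay below every cDC1 library for both. Batf3, on which cDC1 depend, stood at 3.77, 0.903 and 0 CPM in pDC against 84.1 and 67.9 (−5.62 ± 0.95, adjusted p = 0.000435), with −7.41 and −5.00 without pDC WT 1 and pDC WT 3. Bcl6, a repressor active in cDC1, fell (−3.71 ± 0.45), and Zbtb46, a factor of conventional dendritic cells, fell too (−2.92 ± 0.54, adjusted p = 0.000601). These genes were not read in cDC1 alone. Their means in WT cDC2 were 1046 CPM for Id2, 160 for Spi1, 73.0 for Batf3, 132 for Bcl6 and 53.9 for Zbtb46. Nfil3, which acts before Batf3 in cDC1 development, fell by 2.59 on the log2 scale, a call lost without cDC1 WT 1 (adjusted p = 0.183) while the difference grew to −3.87 without pDC WT 3.

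The interferon regulatory factors did not separate in the same way. Irf8, needed by cDC1 and shared by pDC, stood at 7278, 6672 and 7724 CPM in pDC against 5695 and 4728 in cDC1 and was not called (0.47 ± 0.33, adjusted p = 0.313). Irf7, the factor through which pDC amplify interferon production, stood at 125, 135 and 73.2 CPM against 199 and 194 (−0.82 ± 0.31, adjusted p = 0.0544). It was called lower with DESeq2 (adjusted p = 0.0432) and without pDC WT 2 (0.0427). Irf4 overlapped between the groups, with pDC WT 3 at 65.3 CPM and the other pDC libraries at 19.0 and 13. Irf5, which carries signals from TLR7 and TLR9, stood at 34.9, 40.2 and 29.6 CPM against 171 and 193 and was lower in pDC (−2.39 ± 0.27, adjusted p = 3.48e-06).

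**Figure D2:**
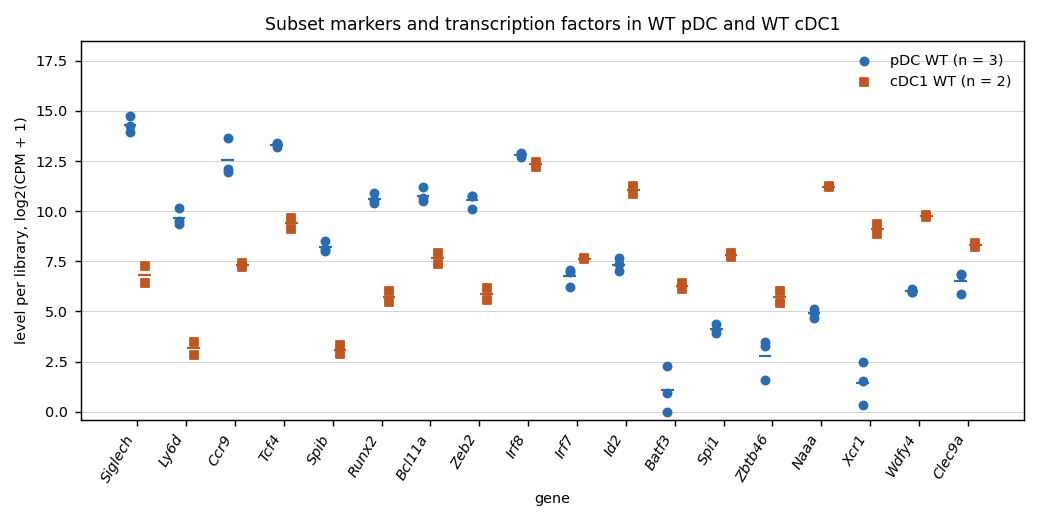
Levels of 18 genes in each WT library, as log2(CPM + 1), with circles for 3 pDC libraries, squares for 2 cDC1 libraries and bars at the group means. The factors Tcf4, Spib, Runx2, Bcl11a and Zeb2 are high in pDC, Id2, Batf3, Spi1 and Zbtb46 are high in cDC1, and Irf8 lies close in both (0.47 ± 0.33).

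The sensors differed member by member. The endosomal Toll-like receptor pathway had 7 of 23 tested members higher in pDC and 1 lower (median 0.53), while other pattern recognition genes had 1 of 25 higher and 8 lower (median −0.63). Tlr7, the sensor of single-stranded RNA, stood at 137, 187 and 151 CPM in pDC against 0.938 and 0.728 in cDC1, which is 188-fold higher (7.55 ± 0.69, adjusted p = 4.01e-07). Tlr9, the sensor of unmethylated CpG DNA, stood at 885, 853 and 823 CPM against 162 and 228, which is 4.38-fold higher (2.13 ± 0.31, adjusted p = 6.37e-05). The groups did not overlap for either gene, and Tlr9 was read in cDC1 as well. Cathepsin genes whose proteases trim these receptors rose with them: Ctsl stood at 510, 504 and 423 CPM against 8.67 and 4.18 (6.23 ± 0.45, adjusted p = 2.97e-08, and 6.85 without cDC1 WT 1), and Ctsb was 5.35-fold higher.

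Tlr3 and Tlr11, both read in cDC1, were nearly or wholly unread in pDC. In WT cDC2 they stood at 53.1 ± 66.6 and 15.2 ± 5.29 CPM (mean ± SD). Tlr3, the sensor of double-stranded RNA, had 0.130, 0.258 and 0 CPM in pDC against 46.4 and 155 in cDC1. With 3 counts in pDC and 1051 in cDC1, the ratio of pooled CPM was 871, with a 95% exact interval of 297 to 4231 that covers counting error only. Tlr11, which recognises profilin of protozoa, had 0 counts in pDC against 70.3 and 109 CPM in cDC1, at least 726-fold lower against a floor of 3 counts over the group. The deposited values are read counts and the treatment of duplicates was not given, so such bounds cover counting error of reads only. Tlr2, a sensor of bacterial lipoproteins, fell (−2.66 ± 0.48, adjusted p = 0.000497), as did Dhx58, a helicase of the RIG-I family (−2.35 ± 0.40, adjusted p = 0.000302). Tmem173, which encodes the DNA sensing adaptor STING, was higher in pDC (1.14 ± 0.30, adjusted p = 0.0096), a call lost without cDC1 WT 2 (0.123).

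Genes of the type I interferon response were, on balance, not raised in pDC. Of 29 tested genes 2 were higher and 8 lower, with a median of −0.43 beside −0.05 over all genes, and 3 and 5 without pDC WT 3. Over all tested genes 12.8% were higher and 14.8% lower. Without 1 of the cDC1 libraries, whichever was left out, the counts were 1 and 5, and without pDC WT 2 they were 1 and 9. Bst2, a restriction factor and pDC surface antigen, stood at 164, 172 and 131 CPM against 45.7 and 48.9 (1.72 ± 0.32, adjusted p = 0.000609). Isg15, a ubiquitin-like protein induced by interferon, stood at 21.5, 17.5 and 18.8 CPM against 61.9 and 73.5 (−1.81 ± 0.35, adjusted p = 0.000843). Ifi204 and Ifi35 fell as well, by 2.10 and 1.10 on the log2 scale. The receptor genes for type I interferon went the other way, with Ifnar1 at 408, 408 and 507 CPM against 130 and 153 (1.64 ± 0.28, adjusted p = 0.000303) and Ifnar2 5.97-fold higher in pDC.

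The signalling receptors of pDC formed a broad group. Of 26 genes for ITAM-linked and inhibitory receptors and their adaptors, 12 were higher in pDC and 6 lower (median 0.80), and the lower count was 4 without any 1 of pDC WT 2, pDC WT 3, cDC1 WT 1 or cDC1 WT 2. This list includes Siglech. Blnk, the adaptor that links SYK to downstream signals in B cells and pDC, stood at 332, 247 and 371 CPM in pDC against 3.05 and 3.82 (6.51 ± 0.49, adjusted p = 3.83e-08). Lair1, an inhibitory collagen receptor, stood at 1829, 1883 and 2875 CPM against 24.1 and 12.0 (6.93 ± 0.45, adjusted p = 8.81e-09, and 7.53 without cDC1 WT 1). Cd300lf, a lipid receptor with inhibitory motifs, was 242-fold higher. Among the lower genes, Havcr2, which encodes TIM-3, stood at 41.4, 31.7 and 43.3 CPM against 437 and 289 (−3.23 ± 0.36, adjusted p = 3.17e-06). Fcgr2b, the inhibitory Fc receptor, fell by 1.86 and Btla by 2.41 on the log2 scale (−1.81 for Btla without cDC1 WT 2).

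Most genes of MHC class II presentation were lower in pDC, 11 of 15 tested with none higher and a median of −2.30. Without pDC WT 3, 9 were lower and 1 higher. H2-Ab1, a class II chain, stood at 482, 562 and 596 CPM in pDC against 6636 and 5806 in cDC1, which is 11.4-fold lower (−3.51 ± 0.24, adjusted p = 1.74e-08). Cd74, the invariant chain, stood at 1157, 1285 and 1799 CPM against 7758 and 7633 (−2.44 ± 0.25, adjusted p = 1.37e-06). Class II protein was part of the cDC1 gate and not of the pDC gate, so this group is tied to the sort. Ciita, the class II transactivator, stood at 19.1, 9.54 and 33.6 CPM against 64.9 and 146 and was not called (adjusted p = 0.167), but was called lower without a filter (5.65e-10) and with only the compared libraries (0.00754).

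Class I genes showed a narrower difference. In the list of MHC class I and cross-presentation, 9 of 24 tested genes were lower and 2 higher (median −0.45, and 0.00 with offsets for transcript length and GC content). Wdfy4, which cDC1 need for cross-presentation, stood at 67.5, 61.5 and 60.9 CPM in pDC against 840 and 886 (−3.77 ± 0.25, adjusted p = 1.27e-08). Its mean in WT cDC2 was 838 CPM. Rab43, a trafficking GTPase of cDC1, fell by 3.22, and Psmb9, an immunoproteasome subunit, by 1.91 on the log2 scale (Rab43 −2.42 without cDC1 WT 2). The mean of Rab43 was 30.0 CPM in WT cDC2, beside 52.1 in WT cDC1. H2-K1 and B2m, the class I heavy and light chains, were not called, with adjusted p = 0.378 and 0.653, but H2-K1 was called higher with the offsets (1.02 in place of 0.45, adjusted p = 0.0460). Cybb, the catalytic subunit of the phagocyte NADPH oxidase, was 40.5-fold higher in pDC, at 6319, 6564 and 8533 CPM against 196 and 156 (5.34 ± 0.35, adjusted p = 8.03e-09).

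Costimulation and maturation genes were also lower in pDC, 15 of 27 tested against 2 higher (median −2.29), and 10 against 1 without cDC1 WT 1. Cd86, a ligand of CD28, stood at 8.59, 8.38 and 16 CPM against 257 and 208 (−4.40 ± 0.36, adjusted p = 1.00e-07). Cd83, a marker of mature dendritic cells, stood at 4.82, 3.35 and 11.3 CPM against 190 and 115 (−4.54 ± 0.74, and −5.21 without pDC WT 3). Ccr7, the receptor that leads mature cells to lymph nodes and the thymic medulla, stood at 532 CPM in cDC1 WT 1 and 160 in cDC1 WT 2 against 32.3 to 56.2 in pDC. Its difference of −3.00 ± 0.79 (adjusted p = 0.0108) became −1.87 without cDC1 WT 1 (adjusted p = 0.218), −3.62 without cDC1 WT 2, and its call was lost with the replicate number as a block (adjusted p = 0.0519). Cd200, an inhibitory ligand, was higher in pDC (2.06 ± 0.37, adjusted p = 0.000442).

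**Figure D3:**
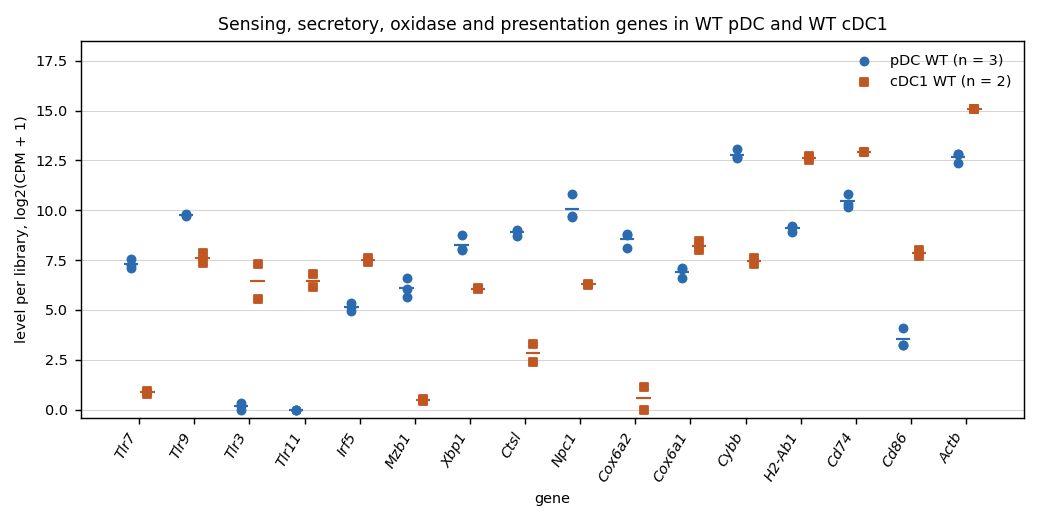
Levels of 16 genes in each WT library, as log2(CPM + 1), with circles for 3 pDC libraries, squares for 2 cDC1 libraries and bars at the group means. Tlr7, Tlr9, Mzb1, Xbp1, Ctsl, Npc1, Cox6a2 and Cybb are higher in pDC, Tlr3 and Tlr11 lie at or near 0 in pDC, and H2-Ab1, Cd74, Cd86 and Actb are higher in cDC1.

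Homing receptors differed in kind. Of 17 tested chemokine receptor and migration genes 6 were higher in pDC and 2 lower (median 1.09, and 1 lower without cDC1 WT 1). Ccr9, the receptor for the thymic chemokine CCL25, stood at 4333, 3981 and 12960 CPM in pDC against 168 and 149 in cDC1 (adjusted p = 2.40e-06), with a log2 difference of 4.73 without pDC WT 3, the highest library. Xcr1, the cDC1 receptor for XCL1, stood at 0.260, 1.93 and 4.53 CPM in pDC against 468 and 658 (adjusted p = 9.91e-07), and the 2 groups did not overlap. Without pDC WT 3 its log2 difference was −8.96. Of 16 tested chemokine genes 8 were lower and 1 higher (median −2.51, and −2.10 with genes of a group at 0 set to their bound), and 5 were lower without cDC1 WT 1. Without cDC1 WT 2 none was higher, and without pDC WT 2 there were 2. Cxcl16, a scavenger receptor and chemokine, fell by 4.87 on the log2 scale, and Ccl4 was the member that rose (2.03 ± 0.47, adjusted p = 0.00337, lost without cDC1 WT 2 at 0.0536). Cxcl9 stood at 15 CPM in pDC WT 1 and 0.129 and 0.453 in the other pDC libraries against 157 and 112 in cDC1. Its difference of −4.71 ± 1.02 was −8.72 without pDC WT 1.

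Adhesion and cytokine receptor genes moved in both directions. Among 25 tested integrin and adhesion genes 5 were higher and 9 lower (median −0.53), with 4 and 5 without cDC1 WT 2. Nrp1, a co-receptor of semaphorins and VEGF, and Pecam1, which encodes CD31, were higher in pDC (2.65 ± 0.29 and 3.03 ± 0.36). Itgae, the CD103 integrin chain of cDC1, stood at 1.56, 0.903 and 1.36 CPM against 76.9 and 56.0 (−5.68 ± 0.65, adjusted p = 4.07e-06). Its mean in WT cDC2 was 34.8 CPM. Of 24 growth factor and cytokine receptor genes 11 were higher and 7 lower (median 0.56), and the lower count was 4 without cDC1 WT 2. Il7r, the receptor chain for interleukin 7 that lymphoid progenitors carry, stood at 411, 521 and 435 CPM against 28.6 and 27.6 (4.02 ± 0.36, adjusted p = 3.65e-07). Kit, the stem cell factor receptor, stood at 15.4, 13.4 and 15.5 CPM against 167 and 154 (−3.44 ± 0.39, adjusted p = 4.07e-06). Flt3, the receptor of the factor the tumours secreted, was 174, 175 and 133 CPM against 315 and 276 (−0.88 ± 0.26, adjusted p = 0.0181). That call was lost without pDC WT 3 (0.0563) or cDC1 WT 1 (0.153), and just missed without cDC1 WT 2.

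Early lymphoid genes were higher in pDC where they differed, 7 of 16 tested with none lower (median 2.50). They included Ly6d and Il7r, and Notch1, which drives T lineage commitment, at 262, 198 and 159 CPM against 33.8 and 14.9 (3.09 ± 0.46, adjusted p = 7.82e-05, and 3.81 without cDC1 WT 1). Cd7, a surface glycoprotein of lymphocytes, was higher at 3.17 ± 0.44, with 4.20 and 2.56 without cDC1 WT 1 and cDC1 WT 2. Markers of thymocytes and T cells did not move as 1 group, with 9 of 24 differences positive and 15 negative (median −0.27). Their summed level was 936 to 1167 CPM in pDC and 421 to 518 in cDC1, 4 of 24 were higher and none lower (2 higher without cDC1 WT 1), and no member was at 0 in either group. Those with the highest level were Satb1, Cd8b1 and Cd4, of which Cd4, a coreceptor that pDC also carry, stood at 155, 194 and 151 CPM against 5.39 and 7.46. Satb1 was not called without cDC1 WT 1 (adjusted p = 0.107). Cd3e and Cd3d, of the T cell receptor complex, stood at 2.34 to 6.32 and 2.49 to 4.51 CPM in pDC and at 6.56 to 7.82 and 8.73 to 8.91 in cDC1, and neither was called (adjusted p = 0.714 and 0.117).

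Secretory genes showed a limited rise with 1 large member. In the secretory pathway 9 of 34 tested genes were higher and 2 lower (median 0.20), beside 12.8% and 14.8% of all genes. Without cDC1 WT 1 the counts were 5 and 0, without cDC1 WT 2 they were 4 and 0, without pDC WT 1 they were 8 and 1, without pDC WT 3 they were 7 and 0, and with the offsets 9 and 0. In the unfolded protein response 10 of 30 were higher and 1 lower (median 0.35), and 6 and 1 without cDC1 WT 1 or 5 and 2 without cDC1 WT 2. Mzb1, a chaperone of antibody-secreting cells, stood at 64.9, 97.0 and 49.0 CPM in pDC against 0.469 and 0.364 in cDC1 (7.36 ± 0.78, adjusted p = 3.82e-06). Xbp1, the factor that expands the endoplasmic reticulum, stood at 265, 259 and 425 CPM against 66.8 and 64.2 (2.27 ± 0.32, adjusted p = 5.19e-05), and Ern1, whose product splices Xbp1, was also higher (2.31 ± 0.41). Sec24d, a coat protein of vesicles that leave the endoplasmic reticulum, rose by 2.06 ± 0.32 (adjusted p = 0.000109). Sdf2l1, another endoplasmic reticulum chaperone partner, was lower in pDC (−2.24 ± 0.38).

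Lysosomal genes exchanged members. Of 30 tested 9 were higher and 6 lower, with a median of 0.03. Npc1, which exports cholesterol from lysosomes, stood at 807, 842 and 1787 CPM in pDC against 78.3 and 75.0 (3.90 ± 0.40, adjusted p = 1.44e-06), and Ctsh, an aminopeptidase, was higher at 2.16 ± 0.28. Cst3, the cathepsin inhibitor cystatin C, stood at 711, 830 and 940 CPM against 16524 and 12272 (−4.12 ± 0.28, adjusted p = 1.74e-08). Ppt1, a palmitoyl thioesterase, was 12.9-fold lower in pDC. The count of higher members was 6 without cDC1 WT 2, and that of lower members was 4 without cDC1 WT 1.

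One subunit of cytochrome c oxidase, the last complex of the respiratory chain, stood out from the rest. Cox6a2, the isoform of heart and muscle, stood at 447, 430 and 272 CPM in pDC against 1.17 and 0 in cDC1 (9.46 ± 0.74, adjusted p = 6.34e-08, and 8.33 without cDC1 WT 2). Without cDC1 WT 1 the cDC1 library left has 0 counts, and the fitted 14.4 is no measure of the difference. Of the other 12 tested isoform genes 6 were lower in pDC and none higher. Cox6a1, the common isoform of the same subunit, stood at 133, 134 and 95.6 CPM against 350 and 256 (−1.33 ± 0.30, adjusted p = 0.00293). That call was lost with offsets for transcript length and GC content (adjusted p = 0.278) and without cDC1 WT 1 (0.0619), and with the offsets the isoform genes called lower numbered 1, and 2 without cDC1 WT 1. Of 33 oxidative phosphorylation genes 8 were lower and none higher (median −0.63), but 3 lower and 1 higher with the offsets, 4 lower without cDC1 WT 1 and 13 lower without pDC WT 2. Of 52 cytosolic ribosomal protein genes 31 were lower and none higher (median −0.97), but 14 and 3 with the offsets, and 20 lower without cDC1 WT 1. Beside these groups, genes higher in pDC had a median transcript length of 3977 bases and those lower 2626, against 3088 over all tested genes.

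Many glycolysis, actin and cell cycle genes were lower in pDC. Of 23 glycolysis genes 13 were lower and 1 higher (median −1.77). With offsets for transcript length and GC content 11 were lower and 2 higher (median −1.53). Ldha, lactate dehydrogenase A, stood at 75.2, 55.4 and 41.7 CPM against 282 and 226 (−2.14 ± 0.29, adjusted p = 2.45e-05), while Slc2a3, a glucose transporter, was higher in pDC (3.28 ± 0.59, adjusted p = 0.000494, and 3.95 without cDC1 WT 1). Of 27 actin and dendrite genes 15 were lower and 2 higher (median −1.05), and 11 and 2 with the offsets (median −0.66). The lower genes included Actb (−2.37 ± 0.29, adjusted p = 8.56e-06) and Flna, an actin cross-linker (−2.73 ± 0.29), while Rac2, a GTPase of blood cells, was higher (2.84 ± 0.31). Of 30 cell cycle genes 27 were lower and none higher (median −2.10), and 15 were lower without cDC1 WT 1. Rrm2, which makes deoxyribonucleotides for DNA synthesis, stood at 0.781, 1.55 and 1.47 CPM against 43.8 and 22.0 (−4.67 ± 0.44, adjusted p = 5.27e-07, and −4.07 without cDC1 WT 1). Mcm5, of the replicative helicase, stood at 3.90, 2.45 and 3.06 CPM against 51.1 and 40.2 (−3.85 ± 0.41, adjusted p = 1.80e-06).

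Immediate early and heat shock genes, which can rise while tissue is dissociated, were lower in pDC for 10 of 24 tested and higher for 2 (median −1.43). Without cDC1 WT 1 the counts were 6 lower and 0 higher, and 1 was higher without pDC WT 2, pDC WT 3 or cDC1 WT 2. Atf3 stood at 44.1, 77.4 and 180 CPM in pDC against 645 and 814 (−2.86 ± 0.66, adjusted p = 0.00463, and −3.57 without pDC WT 3). Jun, of the AP-1 factors, was higher in pDC (1.31 ± 0.36, adjusted p = 0.0104), a call lost without cDC1 WT 1 (0.123). Of 29 cholesterol and fatty acid synthesis genes 2 were higher and 3 lower, with a median of −0.13, both shares below those of all genes. Without either cDC1 library 0 were higher and 2 lower.

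Of 18 cDC2 markers 5 were higher in pDC and 6 lower (median 0.17), and 3 and 4 without pDC WT 3 or cDC1 WT 2, and 4 and 2 without cDC1 WT 1. Sirpa, the ligand of CD47 and a cDC2 marker, stood at 119, 132 and 143 CPM in pDC against 5.39 and 7.46 in cDC1 (4.34 ± 0.35, adjusted p = 8.49e-08). Clec10a, a galactose-binding lectin, stood at 153, 168 and 125 CPM against 14.5 and 4.18 (4.01 ± 0.52, adjusted p = 1.72e-05), with 5.17 and 3.35 without cDC1 WT 1 and cDC1 WT 2. Clec7a, the beta-glucan receptor, fell by 3.44 on the log2 scale, a call lost without cDC1 WT 1 (adjusted p = 0.0672). Itgam, which encodes CD11b, reached no more than 7.81 CPM in either group and was called higher (2.27 ± 0.56), with 3.78 without cDC1 WT 1 and 1.44 without cDC1 WT 2 (adjusted p = 0.117).

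**Figure D4:**
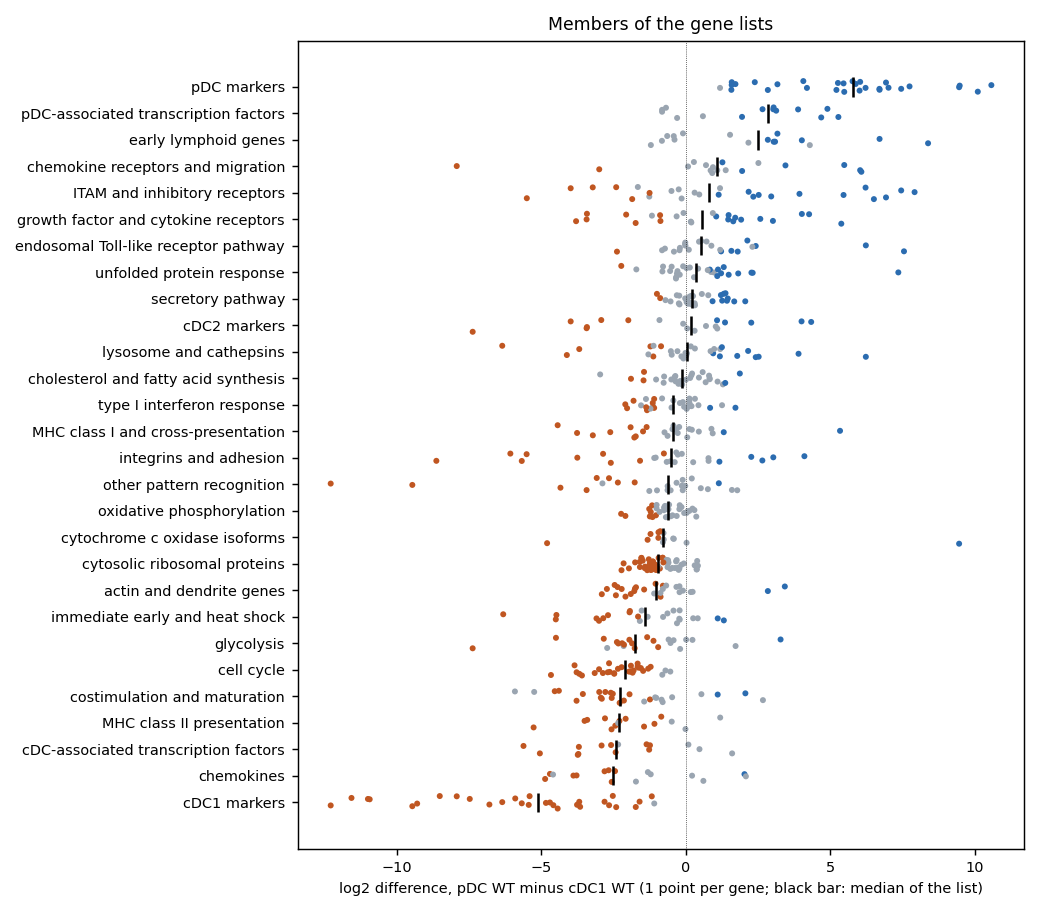
Log2 differences, pDC WT minus cDC1 WT, of each tested member of 28 gene lists, with 1 point per gene coloured blue when called higher in pDC, orange when called lower and grey otherwise, and a black bar at the median of each list. The pDC markers (median 5.77) and cDC1 markers (median −5.13) lie at the ends, and Cox6a2 at 9.46 lies far from the other oxidase genes.

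Markers of other cell types were read in both groups. Their calls stand beside 12.8% of all tested genes higher in pDC and 14.8% lower. B cell markers summed to 124 to 200 CPM in pDC and 22.2 to 25.6 in cDC1, with 2 of 6 tested higher and 1 lower. Most of that sum was Ralgps2, a guanine nucleotide exchange factor, while Pax5, which defines B cells, had 0 counts in both groups. NK cell markers summed to 166 to 190 CPM in pDC and 125 to 158 in cDC1, with 1 of 12 higher and 2 lower (3 lower without pDC WT 3). In pDC the sum was led by Klrd1, at 162 ± 11.4 CPM (SD, n = 3), against 32 and 22 in cDC1. Of the 12 tested members 10 had a negative difference, with a median of −2.90, and Ncr1 and Gzma had 0 counts in pDC. Macrophage markers summed to 118 to 134 and 98.2 to 104 CPM, led by Cd68, which was not called (adjusted p = 0.0514). Among the markers 1 of 13 was higher and 3 lower. Of these, 1 was lower without pDC WT 3, cDC1 WT 1 or cDC1 WT 2, and none was higher without pDC WT 1 or cDC1 WT 1. Monocyte and neutrophil markers summed to 443 to 856 and 319 to 621 CPM, with 0 of 12 higher and 1 lower (1 higher without cDC1 WT 2), led by Ccr2 (659 ± 214 and 310 ± 183 CPM, mean ± SD). Epithelial and stromal markers summed to 90.0 to 99.3 and 31.8 to 36.1 CPM, with 1 of 5 higher and 2 lower (1 lower without pDC WT 2, pDC WT 3 or either cDC1 library), led by Cdh5, an endothelial cadherin that pDC differed in by 7.34 ± 0.70 (6.53 without cDC1 WT 1, and a fitted 11.9 without cDC1 WT 2 that is no measure of the difference since the cDC1 library left has 0 counts), while Krt5 and Krt14 had 0 counts in pDC. Erythroid markers summed to 10.3 to 46.2 and 0.546 to 11.2 CPM, with 1 of 4 higher (none without cDC1 WT 1), led by Hbb-bs. Of the melanoma markers Mitf was tested and not called (adjusted p = 0.0645, and 0.0404 without pDC WT 1), and Pmel and Dct had 0 counts in both groups. The part of other cells in the differences was not tested.

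The same contrast was read in 3 libraries of pDC KO and 2 of cDC1 KO, which gave no value to the WT differences but shared the model's scaling, filter and spread with them. Of the 1509 genes higher in WT pDC, 1390 had the same sign in KO and 839 were called in that direction there, where 9.08% of all tested genes were called higher, and 5 were called lower. Of the 1744 lower genes 1705 had the same sign and 1000 were called lower, where 12.4% of all tested genes were, and none was called higher. The share of all tested genes with the same sign in WT and KO was not counted. Tcf4 differed by 3.69 ± 0.27 in KO beside 3.89 ± 0.28 in WT, Naaa by −6.17 ± 0.35 beside −6.36 ± 0.35, and Tlr7 by 6.81 ± 0.63 beside 7.55 ± 0.69. Other genes lay further apart without passing the test of the difference: Cox6a2 differed by 4.96 ± 0.53 in KO beside 9.46 ± 0.74 in WT (adjusted p of the difference 0.110, the smallest of all genes), and Cd300lf by 5.41 ± 0.42 beside 7.92 ± 0.50 (0.112). The test of the WT difference against the KO difference called 0 of 11746 genes (0%) with edgeR, where 971 had an unadjusted p under 0.05. DESeq2 called 91, limma voom 16 and edgeR without a filter 118. Stk11 itself did not differ between WT pDC and WT cDC1 past the threshold (adjusted p = 0.711). These 3′ tags may lie outside the deleted part and so do not check the deletion.

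**Figure D5:**
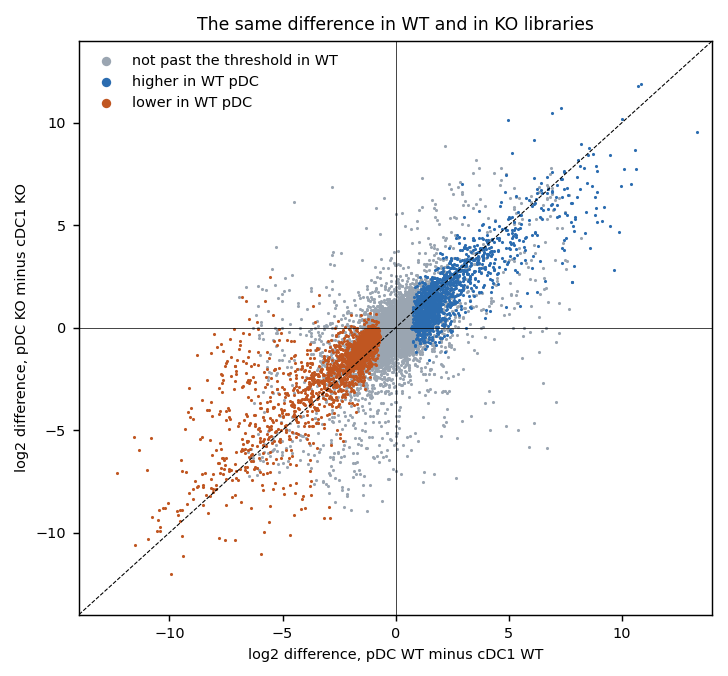
Log2 difference between pDC and cDC1 of each of 11746 tested genes in WT libraries (x axis) and in KO libraries (y axis), which share no library, with genes coloured by their call in WT and a dashed line at equality. Of the 1744 genes lower in WT pDC 1705 lie below 0 on the y axis, and of the 1509 higher ones 1390 lie above 0.

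The 12 genes with the smallest p-values in each direction held further genes of large difference. Pltp, phospholipid transfer protein, stood at 488, 528 and 523 CPM in pDC against 1.88 and 1.64 in cDC1, which is 291-fold higher (8.18 ± 0.47, adjusted p = 4.00e-09). Mctp2, a calcium-sensing membrane protein, had 8890 counts in pDC and 3 in cDC1, a ratio of pooled CPM of 1192 with an interval of 408 to 5780 for counting error. Cmah, which makes a sialic acid form, was higher at 7.99 ± 0.59 (9.32 without cDC1 WT 2), and Fyb, an adaptor of immune receptors, at 3.69 ± 0.27. Fgl2, a secreted fibrinogen-like protein, stood at 8.20, 4.90 and 6.57 CPM against 514 and 721 (−6.55 ± 0.38, adjusted p = 4.00e-09). Gatm, the first enzyme of creatine synthesis, was 190-fold lower in pDC, with 3.12, 5.03 and 3.17 CPM against 862 and 574. Tgfbi, a matrix protein induced by TGF-beta, was lower at −7.66 ± 0.49 (−8.31 without pDC WT 3), and Cd9, a tetraspanin, was 45.7-fold lower.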

How the data were processed

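Dendritic cell subsets from mouse thymus were profiled as 15 strand-specific 3′ tag libraries in 6 groups, made with barcoded oligo-dT primers and 12 cycles of PCR, per the labels. The deposited table holds read counts per gene that the authors had not normalized, which was checked on the values (whole numbers with unequal totals). STAR, HTSeq, DESeq2 and the mm10 build are listed in the submitters' processing notes. Their versions, their order and the treatment of duplicates were not given in the sources used here.

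Of 22165 genes 5860 had no count. edgeR's filterByExpr kept 11746, and the rest held 0.0538% of the counts. All 15 libraries entered 1 quasi-likelihood model with TMM scaling, a coefficient for each of the 6 groups and robust estimation of the spread (edgeR 4.0.16, limma 3.58.1, R 4.3.3), so the 2 cDC1 libraries share a spread estimated over all groups. Replicates differed by more than counting error. Symbols, lengths and GC content come from GENCODE M21 and matched 21745 genes. A floor of 3 counts per group gives bounds.

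The 36 gene lists hold 770 symbols, of which 714 were tested, and were chosen with earlier results of these data known. Named genes were the 12 per direction with the smallest p, up to 4 called members per list and direction, a set of lineage genes and the highest members of lists of other cells. Cadm1, Mef2c, Tcf12, Ifnar1, Ifnar2, Cd3e, Cd3d, H2-K1, B2m and the genes and families of the closing section were named after their values were seen. The results were recomputed with RLE scaling, with DESeq2 1.42.0, with limma voom, no filter, a filter of 10 CPM in 2 libraries, only the compared libraries, no robust spread, a fold threshold of 2, an adjusted p of 0.01, the replicate number as a block, offsets for length and GC content, and leaving out each library. List counts under left-out libraries, the block and the offsets were alternatives chosen after seeing the data.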

Additional observations from a re-analysis of the deposited data

How the results depend on the processing

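The counts of genes higher and lower in WT pDC were 1509 and 1744, and stayed within 1.5 times of these with RLE scaling, DESeq2, limma voom, no filter, the strict filter, only the compared libraries, no robust spread and the offsets. They fell to 605 and 782 with a fold threshold of 2 and to 847 and 1010 at an adjusted p of 0.01, as a stricter rule must. Leaving out each library gave 724 to 1402 higher and 968 to 1580 lower genes, with the lowest values without cDC1 WT 1, which leaves 1 cDC1 library that is assumed to vary like the other groups. The offsets moved the median of all genes by 0.07 and gave 1481 higher and 1455 lower genes. The genotype difference had 0 calls, against 91 with DESeq2, 16 with limma voom, 118 without a filter and 0 to 2 when libraries were left out; the cause was not tested.

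The named genes, with those named after their values were seen, and the family members held 215 called genes. Of these 160 kept their call under every alternative they could be fitted in, and 55 lost it under at least 1. The adjusted p of 0.01 was not among the alternatives counted here. The fold threshold lost 45, leaving out cDC1 WT 1 lost 38 and leaving out cDC1 WT 2 lost 23. The direction turned only for uncalled genes. Stk11 (0.19) ran from −0.06 to 0.53 and Itgax (−0.14) from −0.22 to 0.02 with libraries left out. Hbb-bs (1.63) ran from −2.50 to 8.89, the last a fitted value over a cDC1 library with 0 counts, and was −0.23 with the replicate block. Calls were also gained beside the alternatives given above for Irf7, Ciita, H2-K1, Cadm1 and Mitf. Without a filter these were Irf4 (adjusted p = 0.00333), Cadm1 (0.00542), Mitf (0.0414) and Ccr2 (0.0119). DESeq2 gained Mitf (0.0293) and Cd68 (0.00744), and limma voom gained Ccr2 (0.0383) and Cd68 (0.0301). With edgeR, Cd68 was also called with RLE scaling (0.0417), the strict filter (0.0311), the offsets (0.0022) and without pDC WT 3 (0.0369). Ccr2 differed by 1.87 without cDC1 WT 2, in place of 1.09. Of 503 list medians under alternatives 24 changed sign, in 9 lists.

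Whether replicate numbers pair the samples is not in the labels. Deviations from the group means of same-numbered pDC and cDC1 libraries correlated at −0.0499 and 0.094. With 2 cDC1 libraries these deviations mirror each other, so the correlations cannot decide it. With the replicate block 1265 genes were higher and 1506 lower, of which 1234 and 1448 were shared with the calls above. At this depth, genes with few counts in 1 group, such as Tlr3, have ratios with wide counting intervals.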

Other observations

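Several gene families, some of whose members are also in the lists, were described after their values had been seen, with all tested members counted and no test of the family. Among 11 guanylate-binding proteins and immunity-related GTPases, which act against intracellular microbes and are often induced by interferon, 5 were higher in pDC and none lower. Gbp4 stood at 78.5, 104 and 85.8 CPM in pDC against 6.09 and 6.55 in cDC1 (3.82 ± 0.36, edgeR adjusted p = 5.38e-07), and Gbp8 was higher at 3.03 ± 0.37. Gbp2, Gbp5 and Gbp9, of the same family, were not called. Gbp3 and Iigp1 lost their call without cDC1 WT 1, and Gbp7 without pDC WT 1 or cDC1 WT 2.

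Of 9 annexins, which bind membranes in the presence of calcium, 5 were lower in pDC and none higher. Anxa1 stood at 0.651, 2.97 and 1.25 CPM against 156 and 215 (−6.83 ± 0.73, adjusted p = 3.83e-06, and −7.57 without pDC WT 2). Of 19 genes of the Bcl2 family, which sets the threshold of apoptosis, 2 were higher and 7 lower, beside 12.8% and 14.8% of all tested genes. Bcl2 stood at 35.5, 35.6 and 35.8 CPM in pDC against 14.8 and 16.7 (1.18 ± 0.31, adjusted p = 0.00885), and Bcl2l1, which encodes BCL-XL, at 1.17, 2.84 and 1.70 against 16.4 and 7.82 (−2.66 ± 0.69, adjusted p = 0.00826). Both calls were lost without cDC1 WT 1 (0.0956 for Bcl2 and 0.125 for Bcl2l1), and that of Bcl2 just missed the threshold without cDC1 WT 2.

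Both tested receptors for the B cell factors BAFF and APRIL were higher in pDC. Tnfrsf13b, which encodes TACI, stood at 320, 279 and 323 CPM in pDC against 21.1 and 19.1 (3.93 ± 0.38, adjusted p = 6.41e-07), and Tnfrsf13c at 22.5, 65.8 and 28.6 against 3.05 and 2.00 (3.95 ± 0.63, and 3.35 without pDC WT 2). Among 7 GIMAP genes, GTPases of lymphocytes, 3 were higher and none lower, with Gimap6 at 136, 175 and 168 CPM against 17.6 and 10.6. Of 8 Ly6 genes 4 were higher and none lower, while Ly6e stood at 984 to 1230 CPM in pDC and 961 to 1123 in cDC1 and was not called (adjusted p = 0.899).

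Of 5 class 4 semaphorin genes 2 were higher in pDC and 2 lower, and Sema4c was not called. Sema4b stood at 364, 350 and 844 CPM in pDC against 10.3 and 4.37 (6.16 ± 0.64, adjusted p = 1.59e-06, and 6.90 without cDC1 WT 1), and Sema4a at 9.11, 5.54 and 6.80 against 91.9 and 102 (−3.76 ± 0.42, adjusted p = 2.92e-06). Sema4d was higher at 1.37 ± 0.36, and Sema4f was lower, with 4 counts in pDC and 247 in cDC1. Of 11 voltage-gated calcium channel subunit genes 3 were higher and 1 lower, beside 12.8% and 14.8% of all tested genes. Cacna1e stood at 622, 443 and 737 CPM in pDC against 83.0 and 118 (2.58 ± 0.40, adjusted p = 0.00012).

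Some genes known from other tissues had many counts in pDC and few or none in cDC1. Myh13, a myosin heavy chain of eye muscle, stood at 129, 244 and 182 CPM in pDC and had 0 counts in cDC1, at least 602-fold higher against the floor. Klk1, a tissue kallikrein, had 3908 counts in pDC and 2 in cDC1, a ratio of pooled CPM of 786 with an interval of 217 to 6492 for counting error. Its neighbour in the kallikrein cluster Klk1b27 had 659 and 0 counts, and reads of such near-identical genes could be split by the counting. Hsd11b1, which activates glucocorticoids, had 2441 and 2 counts, a ratio of 491 (136 to 4056). While 27 of 30 cell cycle genes were lower in pDC, Ccnd2, a D-type cyclin, stood at 468, 291 and 684 CPM in pDC against 77.6 and 56.4 (2.85 ± 0.36, adjusted p = 1.25e-05).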
